A study of Mus musculus with 4 samples.

Results

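The 41 interferon response genes described here were taken by symbol from the 30028 genes listed in single-cell RNA sequencing tables of mouse lung, and every one of them was found in the tables. They comprise 4 transcription factors (Irf1, Irf7, Irf9 and Stat2), 4 IFIT genes (Ifit1, Ifit2, Ifit3 and Ifit3b), the ubiquitin-like protein Isg15 and its protease Usp18, 5 sensors or effectors of foreign nucleic acid (Ifih1, Ddx58, Dhx58, Eif2ak2 and Zbp1), 5 oligoadenylate synthetase family genes (Oas1a, Oas2, Oas3, Oasl1 and Oasl2), 8 GTPases (Mx1, Mx2, Gbp2, Gbp3, Gbp7, Igtp, Irgm1 and Ifi47), the neighbouring enzymes Rsad2 and Cmpk2, 3 membrane-associated products (Bst2, Ifitm3 and Ifi27l2a) and 8 others (Ifi44, Ifi35, Xaf1, Parp14, Trim30a, Rtp4, Ifi202b and Phf11b). The study crossed FUNDC1 genotype with HySu, a mouse model of pulmonary hypertension that combines hypoxia with SU5416, an inhibitor of the VEGF receptor, given in 3 weekly doses. Wild-type mice were kept in normoxia (NW) or given HySu (HSW), as were FUNDC1-KO mice (NK and HSK, respectively), and mice without HySu received vehicle in room air. Mice were 11 weeks old, and cells from 5 mice were pooled into 1 library for each group. The labels give neither the strain nor the cells in which Fundc1 was deleted, although the series title points to endothelium.

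Type I interferons bind the receptor IFNAR1/IFNAR2, which acts through the kinases JAK1 and TYK2 to activate a complex containing STAT2 and IRF9 that binds the interferon-stimulated response element (ISRE). Interferon gamma binds IFNGR1/IFNGR2 and acts on genes that carry the gamma-activated site (GAS). Among the genes induced, the IFIT, OAS, MX, viperin (Rsad2) and tetherin (Bst2) products restrict viruses at different steps, the GBP and IRG GTPases act on membranes around intracellular microbes, and Irf7 and the RNA sensors Ifih1 (MDA5), Ddx58 (RIG-I) and Dhx58 (LGP2) raise later interferon output. In lung, Ifitm3 limits the entry of enveloped viruses and is well known from influenza.

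Promoter windows of 300 bases, from 250 before to 50 after the annotated start, were found in RefSeq tables of build GRCm38.p6 for 32 of the 41 genes. An ISRE core, spelled GAAA, any 2 bases and GAAA and sought on both strands, was present in the window of 20 of these 32 genes (62.5%) against 1079 of all 27025 genes with a window (3.99%). A GAS core, TTCNNNGAA on both strands, was present in 10 of 32 (31.2%) against 2582 of 27025 (9.55%). Windows of 6 members held both motifs, and these can overlap, as they do in Ifitm3 and Bst2. The 6 windows below belong to members on which the comparisons turn: Isg15 and Ifitm3, which were lower in NK than in NW across most cell classes, Bst2, which was not, and Oasl1, Ifi202b and Phf11b, which had some of the highest or lowest ratios between groups in classical monocytes. They are written 5′ to 3′ on the strand of the gene, with capitals marking ISRE or GAS matches. Isg15 lies at chr4:156200769-156201068, minus strand, Ifitm3 at chr7:141010695-141010994, minus strand, Bst2 at chr8:71537423-71537722, minus strand, Oasl1 at chr5:114922990-114923289, plus strand, Ifi202b at chr1:173982795-173983094, minus strand, and Phf11b at chr14:59341281-59341580, minus strand, where these coordinates are those of the windows.
Isg15: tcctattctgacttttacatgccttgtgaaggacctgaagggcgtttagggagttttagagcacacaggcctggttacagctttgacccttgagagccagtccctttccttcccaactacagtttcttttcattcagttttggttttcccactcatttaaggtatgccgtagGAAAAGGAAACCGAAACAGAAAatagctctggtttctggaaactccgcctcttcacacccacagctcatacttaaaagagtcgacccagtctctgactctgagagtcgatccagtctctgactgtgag
Ifitm3: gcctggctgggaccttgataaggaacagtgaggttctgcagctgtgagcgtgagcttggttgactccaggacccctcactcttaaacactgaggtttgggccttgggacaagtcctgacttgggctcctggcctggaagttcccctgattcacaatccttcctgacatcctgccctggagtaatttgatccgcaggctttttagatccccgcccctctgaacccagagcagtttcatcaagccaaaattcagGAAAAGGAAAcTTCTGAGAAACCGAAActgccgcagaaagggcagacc
Bst2: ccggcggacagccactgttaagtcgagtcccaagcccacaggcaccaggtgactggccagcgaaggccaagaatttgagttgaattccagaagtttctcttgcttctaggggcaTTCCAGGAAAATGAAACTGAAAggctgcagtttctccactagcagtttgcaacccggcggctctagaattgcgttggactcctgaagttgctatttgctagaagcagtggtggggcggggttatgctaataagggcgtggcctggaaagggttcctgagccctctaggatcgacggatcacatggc
Oasl1: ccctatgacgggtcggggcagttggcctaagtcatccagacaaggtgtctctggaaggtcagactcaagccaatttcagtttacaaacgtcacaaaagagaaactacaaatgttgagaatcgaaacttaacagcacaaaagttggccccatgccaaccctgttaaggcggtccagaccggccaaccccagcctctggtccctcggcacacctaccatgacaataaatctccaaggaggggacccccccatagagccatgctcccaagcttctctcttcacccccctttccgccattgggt
Ifi202b: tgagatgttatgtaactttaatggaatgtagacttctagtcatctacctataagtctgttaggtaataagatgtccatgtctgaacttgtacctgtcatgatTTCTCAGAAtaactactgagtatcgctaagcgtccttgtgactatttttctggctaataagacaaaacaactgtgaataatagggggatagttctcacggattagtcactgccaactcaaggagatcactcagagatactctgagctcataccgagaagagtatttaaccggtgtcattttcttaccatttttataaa
Phf11b: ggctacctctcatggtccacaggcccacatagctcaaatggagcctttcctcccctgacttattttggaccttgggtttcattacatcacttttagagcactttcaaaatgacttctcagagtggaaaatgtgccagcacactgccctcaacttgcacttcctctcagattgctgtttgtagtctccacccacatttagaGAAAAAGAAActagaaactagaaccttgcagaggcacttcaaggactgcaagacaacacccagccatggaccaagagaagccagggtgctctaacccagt

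With the start site used for each window as 0, the Isg15 window held 3 overlapping ISRE matches that began between -78 and -66. Ifitm3 held 2 ISRE matches, at 2 and 19, and 1 GAS match, all within the start of the transcript. Bst2 held 2 overlapping ISRE matches, at -130 and -124, and 1 GAS match, whereas Phf11b held 1 ISRE match, at -50. Ifi202b held 1 GAS match and no ISRE match, and the Oasl1 window held neither. For Phf11b and Oasl1 the start site used lies inside the annotated gene, whose outer 5′ ends are at 59341388 and 114923143. The Phf11b match thus lies within the annotated gene. A match describes these letters only and is not evidence that a factor was bound.

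Many members lie next to each other. Of the 41 genes, 22 fall into 9 loci whose members are less than 1 Mb apart, including Ifit2, Ifit3, Ifit3b and Ifit1 on chromosome 19 from 34550550 to 34650009, Oas2, Oas3 and Oas1a on chromosome 5 from 120730333 to 120907544, Gbp7, Gbp3 and Gbp2 on chromosome 3 from 142530336 to 142638008, and Ifitm3 and Irf7 on chromosome 7 from 141009590 to 141266499. Several have close copies among which short reads could be divided during counting, namely Ifit3 and Ifit3b, the GBP genes, Oas1a, Ifi202b and Phf11b, so the split between such copies is uncertain.

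The libraries held 7649 (NW), 9164 (NK), 5041 (HSW) and 4128 (HSK) cells, with 41308071 to 63501686 unique molecular identifiers (UMIs) each and a lowest cell at 3182 to 4726 UMIs. Between 20 and 70 cell barcodes were shared by each pair of libraries. After cells with markers of several lineages were removed, 5967, 6695, 4113 and 3695 cells remained, and clusters were named from marker genes, so that each class name below stands for cells that resemble that type. The members and related pathway genes were kept out of the clustering. Levels are UMIs summed over a class and expressed per 1000000 UMIs of that class (CPM). With 1 library per group there is no replicate, no test is given, and the 95% intervals given in square brackets cover counting error only. A difference between 2 libraries therefore cannot be told apart from a difference between 2 pools, captures or dissociations. Fundc1 itself was found at 46.6 CPM in NW, 37.0 in HSW, 1.66 in NK and 0 in HSK in classical monocytes, at 51.3 CPM in NW, 52.7 in HSW, 1.16 in NK and 0.139 in HSK in alveolar macrophages, and at 51.0 CPM in HSW, 2.03 in NK and 0 in HSK in vascular endothelial cells. It was lower in both knockout libraries in every class with 50 cells, so the loss was not limited to endothelium. A member was counted as measured in a comparison when the 2 libraries together held at least 50 UMIs of it in a class, and classes needed 50 cells in both libraries. Vascular endothelial cells numbered 46 in NW, so no endothelial ratio against NW is given.

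The first question was which lung cells carried the interferon response genes. Of the 41 members, 27 had their highest mean level in classical monocytes among the 8 classes that had 50 cells in all 4 libraries. Below, a gene is called highest in a class by its mean over the 4 libraries among these 8, unless other classes are named. The classical monocyte class pooled 2357 cells of a cluster led by F13a1 and Vcan with 1466 of a cluster led by Gm9733 and Plac8. The latter had neither Ly6c2 nor Vcan among its leading genes. It scored 0.39 on the classical monocyte markers, against 0.84. The non-classical class held 589 cells, but 1525 with members among the variable genes and 1457 with Scrublet alone. The border between these monocyte classes thus depends on the clustering. Vascular endothelial cells, neutrophils, B cells, plasmacytoid dendritic cells (DCs) and non-classical monocytes are outside the 8, and each exceeded classical monocytes for some members. When every class with 50 cells in a library was included, classical monocytes were the top class for 16 members in NW, 13 in HSW, 12 in NK and 20 in HSK. Vascular endothelial cells were the top class for 16 members in HSW, 8 in NK and 15 in HSK, and neutrophils for 9 in NW, 3 in HSW and 8 in NK. Plasmacytoid DCs, which had 50 cells in NK alone, were the top class there for 7. Ifitm3, the most abundant by UMIs, stood at 4054 CPM in NW, 7107 in HSW, 3006 in NK and 6103 in HSK in classical monocytes. Its levels were 1805 CPM in NW, 2966 in HSW, 1419 in NK and 2644 in HSK in fibroblasts and 89.9 CPM in NW, 72.5 in HSW, 66.0 in NK and 72.1 in HSK in alveolar type 2 (AT2) cells, so monocytes and fibroblasts stood far above AT2 cells in every library. Ifi27l2a, which encodes a small hydrophobic protein, was at 2605 CPM in NW, 3344 in HSW, 1853 in NK and 2798 in HSK in classical monocytes. T and NK cells were the next highest class for Ifi27l2a, at 1525 CPM in NW, 2122 in HSW, 1016 in NK and 2784 in HSK, and AT2 cells the lowest of the 8 classes by mean level, at 77.4 CPM in NW, 47.1 in HSW, 55.0 in NK and 40.8 in HSK. In HSK, T and NK cells were close to monocytes for Ifi27l2a.

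Among the transcription factors, Irf7, the main amplifier of type I interferon, was at 242 CPM in NW, 213 in HSW, 229.7 in NK and 161 in HSK in classical monocytes and at 16.1 CPM in NW, 7.12 in HSW, 14.5 in NK and 4.03 in HSK in alveolar macrophages. Irf1, which is induced by interferon gamma, differed from the other 3 in being highest by mean in T and NK cells, at 197 CPM in NW, 134 in HSW, 184 in NK and 80.5 in HSK. Irf9 and Stat2, both parts of the ISRE-binding complex, were highest in monocytes and next highest in conventional DCs, and Stat2 in monocytes was at 93.9 CPM in NW, 61.7 in HSW, 89.8 in NK and 52.4 in HSK.

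Among the IFIT genes, Ifit1, which binds viral RNA lacking a methylated cap, was highest in T and NK cells at 54.3 CPM in NW, 33.3 in HSW, 27.2 in NK and 14.6 in HSK, and Ifit2, Ifit3 and Ifit3b were highest in fibroblasts. Ifit3b had 193 UMIs over the 8 classes and all libraries, the fewest of the 4. Isg15 was at 128 CPM in NW, 178 in HSW, 78.2 in NK and 98.3 in HSK in monocytes and at 10.2 CPM in NW, 3.49 in HSW, 6.26 in NK and 6.90 in HSK in AT2 cells. Usp18, which removes ISG15 from proteins, was the one member with its highest mean level in airway epithelial cells.

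Zbp1, a sensor of left-handed nucleic acid that can trigger cell death, was at 178 CPM in NW, 231 in HSW, 147 in NK and 179.9 in HSK in monocytes and at 4.90 CPM in NW, 2.55 in HSW, 5.29 in NK and 3.55 in HSK in AT2 cells. Ifih1, Ddx58, Dhx58 and Eif2ak2, the kinase PKR, were all highest in monocytes among the 8 classes. Outside the 8, Ddx58 was higher in endothelium in HSW, NK and HSK and in B cells in NW, and Ifih1 was higher in endothelium in HSW and HSK and in non-classical monocytes in NW. All 5 OAS family genes had their highest mean in monocytes as well, with Oas1a at 105 CPM in NW, 99.2 in HSW, 96.2 in NK and 110.2 in HSK and Oasl2 at 108 CPM in NW, 94.2 in HSW, 118 in NK and 62.6 in HSK. Neutrophils exceeded monocytes in NW and NK for Oas3, Oasl1 and Oasl2. In AT2 cells Oas1a was found at 1.26 CPM in NW, 0.805 in HSW, 0.835 in NK and 0.732 in HSK, from 6 to 9 UMIs per library.

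The GTPases split between classes. Mx1 and Mx2, which bind viral nucleocapsids, were highest in monocytes, with Mx1 at 51.2 CPM in NW, 40.7 in HSW, 47.9 in NK and 31.0 in HSK. Gbp7, Igtp and Ifi47 were highest in T and NK cells, where Gbp7 was at 123 CPM in NW, 72.9 in HSW, 126 in NK and 122 in HSK. Gbp2 had its highest mean in fibroblasts, and Gbp3 and Irgm1 in monocytes. Rsad2 and Cmpk2, which act together on a chain-terminating nucleotide, were highest in monocytes, with Rsad2 at 51.2 CPM in NW, 47.1 in HSW, 38.5 in NK and 29.8 in HSK, and neutrophils exceeded them for both genes in NW and NK.

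Bst2 was at 293 CPM in NW, 261 in HSW, 294 in NK and 286 in HSK in conventional DCs and at 147 CPM in NW, 216 in HSW, 188 in NK and 181 in HSK in monocytes, and was higher still in plasmacytoid DCs, at 3595 CPM in NK, the library in which that class had 57 cells. Bst2 is a known surface marker of mouse plasmacytoid DCs. Phf11b, Ifi35 and Ifi44 were also highest in conventional DCs among the 8 classes, with Phf11b at 167 CPM in NW, 245 in HSW, 99.9 in NK and 174 in HSK. Trim30a, Xaf1, Parp14, Rtp4 and Ifi202b were highest in monocytes among the 8 classes, although endothelium exceeded monocytes for Xaf1, Parp14 and Rtp4 in HSW and HSK, and Trim30a varied least of the 5 between libraries there, at 270.0 CPM in NW, 245 in HSW, 252 in NK and 253 in HSK.

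Vascular endothelial cells, of which there were 107 in NK, 237 in HSW and 116 in HSK, exceeded monocytes for a subset of members. Endothelial Bst2 was at 464 CPM in HSW, 510.4 in NK and 485 in HSK, Gbp2 at 185 CPM in HSW, 240.0 in NK and 131 in HSK, and Gbp7 at 221 CPM in HSW, 254 in NK and 176 in HSK. Gbp2 and Gbp7 in monocytes were at most 70.8 and 55.3 CPM, so both genes were higher in endothelium in each of these libraries. Gbp3 was not, at 61.6 CPM in HSW, 109.8 in NK and 44.6 in HSK in endothelium and 91.5 CPM in NW, 76.0 in HSW, 113 in NK and 69.1 in HSK in monocytes. Ifi44, which had at most 2.58 CPM in monocytes, was at 35.1 CPM in HSW, 79.3 in NK and 30.6 in HSK in endothelium. Ifi27l2a ran the other way, at 96.7 CPM in HSW, 52.9 in NK and 119.7 in HSK in endothelium, far under its monocyte level. A set of 8 general leukocyte genes summed to 493 CPM in HSW, 850.0 in NK and 498 in HSK in endothelial cells, against 15996 CPM in NW, 18159 in HSW, 14376 in NK and 18025 in HSK in classical monocytes, and none of the 8 was at 0. In endothelial cells the 5 red cell genes summed to 9156 CPM in HSW, 146 in NK and 1877 in HSK, and to 12960 CPM in the 46 endothelial cells of NW, so red cell transcripts were highest in NW and HSW and lower in both knockout libraries, and their part in the results was not tested. The 8 endothelial markers summed to 12323 CPM in HSW, 14668 in NK and 11139.6 in HSK, and none was at 0.

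Members were also counted within single cells. Each cell was thinned to 4726 UMIs, the lowest depth of HSK, which left out between 0 and 755 cells per class and library. In classical monocytes at least 10 of the 41 members were found in 46.6% [43.7 to 49.5] of cells in NW, 56.4% [52.8 to 60.02] in HSW, 44.7% [40.1 to 49.4] in NK and 39.7% [33.5 to 46.1] in HSK. Without thinning, these shares were 57.4%, 68.5%, 44.3% and 52.6%. HSW was the highest with and without thinning. At the thinned depth the HSW and HSK intervals did not overlap, but these intervals count cells and do not cover differences between pools. Thinning left out 471 of 1628 monocytes in NW, 100 of 853 in HSW, 639 of 1095 in NK and 0 of 247 in HSK. The cells compared were therefore selected differently in each library. HSK lay below NK with thinning and above NK without it, so the order of these libraries depends on thinning. Between 52 and 230 monocytes per library held exactly 9 or 10 members, so the share depends on where the line of 10 is drawn.

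Vascular endothelial cells reached 52.9% [45.5 to 60.2] in HSW and 44.8% [35.6 to 54.3] in HSK, close to monocytes, and these 2 intervals overlapped. Conventional DCs reached 18.9% [14.0 to 24.7] in NW and 20.7% [14.3 to 28.4] in HSW, but 9.64% [5.61 to 15.2] in NK and 8.25% [3.63 to 15.6] in HSK, so both knockout libraries were lower than both wild-type libraries, with intervals that overlapped slightly within each condition. Unthinned, the 4 DC shares were 29.5% in NW, 34.2% in HSW, 13.7% in NK and 13.4% in HSK, in the same order of genotypes. AT2 cells give the level in a class with few of these transcripts, at most 0.240%, with a median depth of 4602 to 7076 UMIs against 4428 to 6251 in monocytes. Alveolar macrophages, whose median depth was 9102 to 11866 UMIs, reached at most 1.00%. The monocyte with the most members held 35 of the 41 at the thinned depth, in NW.

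**Figure D1:**
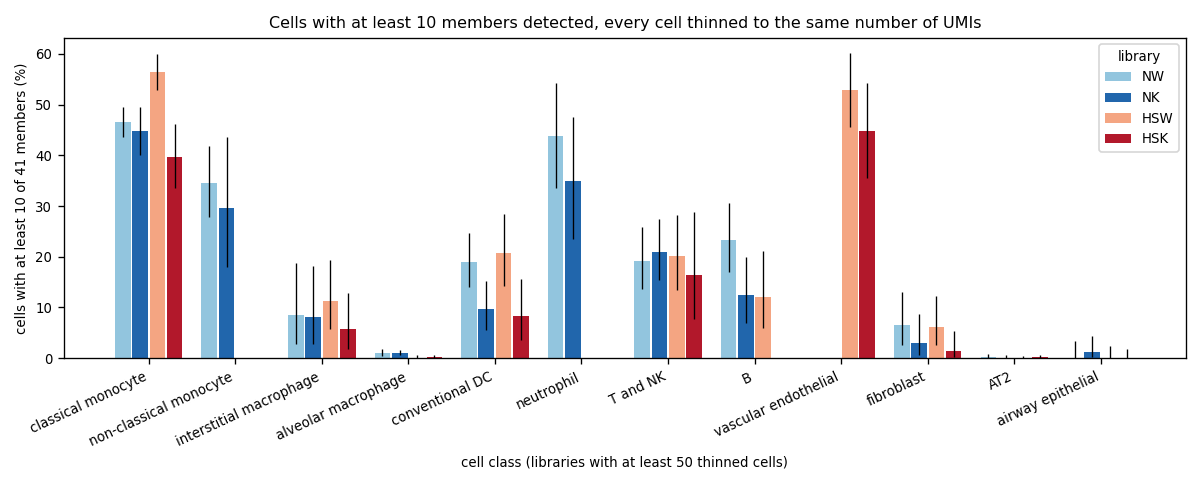
Percent of cells in which at least 10 of the 41 members had a UMI, by class and library, after each cell was thinned to 4726 UMIs; bars are Clopper-Pearson 95% intervals. Classical monocytes and endothelial cells stand above 39%. Neutrophils reach 43.75% in NW and 34.8% in NK, and non-classical monocytes 34.6% in NW and 29.6% in NK. Conventional DCs of NK and HSK lie under those of NW and HSW.

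The next question was whether FUNDC1 genotype under normoxia was accompanied by a difference in these genes. Comparing NK with NW, the median log2 ratio of the members was below the median of all measured genes in 11 of 11 classes. The gap was largest in conventional DCs, at -0.60, followed by non-classical monocytes at -0.37 and fibroblasts at -0.36. In the other 8 classes it lay between -0.25 and -0.11. The side held less well in 3 classes, where the gap was 0.0163 in fibroblasts with cells above a common UMI minimum, 0.345 in interstitial macrophages with thinned cells and 0.134 in B cells with Scrublet calls as the only doublet filter. The classes come from the same pair of libraries and share their mice and capture, so they are not independent of each other. In the plot of medians by class, the members sit to the left of all genes in each class of the NK against NW panel.

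**Figure D2:**
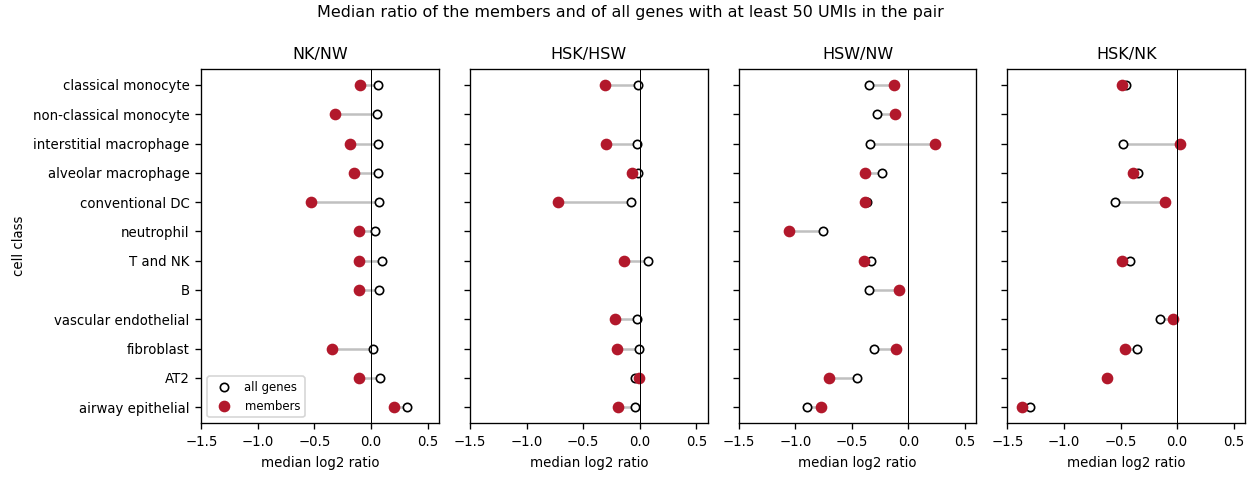
Median log2 ratio of the measured members (filled) and of all measured genes (open) by class, in 4 panels for NK against NW, HSK against HSW, HSW against NW and HSK against NK. The members' point lies below that of all genes in 11 of 11 classes for NK against NW and in 8 of 9 for HSK against HSW.

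Counts past a 1.5-fold ratio were read in the classes where at least 20 members were measured. In conventional DCs 14 of 37 members were lower in NK and 1 was higher, against 6.99% lower and 10.6% higher among all genes measured there. Oas2 was lower, at 11.3 CPM in NK and 29.6 in NW, a ratio of 0.382 [0.216 to 0.646], and Oasl2 at 17.3 CPM in NK and 38.6 in NW, a ratio of 0.447 [0.282 to 0.691]. Igtp, an interferon gamma-induced GTPase, was the 1 member higher, at 1.79 [1.03 to 3.16]. In NW several of these DC sums came from few cells: 5 of 275 cells held 36 of the 57 Oas3 UMIs and 43 of the 82 Oasl2 UMIs. The DC clusters that both libraries filled were each lower in NK, with member medians of -0.34 in the cluster led by Cd209a and Clec10a and -0.44 in the cluster led by Xcr1 and Clec9a. Summed classical monocyte markers in DCs were 3351 CPM in NW, 1900.2 in HSW, 2518 in NK and 1355 in HSK, so they too were lower in NK than in NW, and their part was not tested.

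In T and NK cells 8 of 34 members were lower and 0 higher, against 5.02% and 9.90% of all genes. In a finer clustering, a T cell cluster with Tcf7 and Il7r among its leading genes held 177 cells in NW, 83 in HSW, 214 in NK and 10 in HSK. Another, with Pclaf and Top2a, held 65 in NW, 70 in HSW, 160 in NK and 37 in HSK. The libraries thus made up this class differently, and the part of make-up in its ratios was not tested. Oas1a was at 17.9 CPM in NK and 45.9 in NW, a ratio of 0.390 [0.262 to 0.572], and Mx1 at a ratio of 0.425 [0.229 to 0.767]. In alveolar macrophages 5 of 35 were lower and 0 higher, against 3.10% and 5.56%, with Cmpk2 at 0.446 [0.281 to 0.694] and Oas2 at 0.567 [0.410 to 0.780]. Both genes were low in these macrophages, with Cmpk2 at 1.76 CPM in NK and 3.95 in NW. In classical monocytes 3 of 39 were lower and 0 higher, against 4.60% and 6.68%, so the share past 1.5-fold was close to that of all genes. The 3 were Ifi202b at 31.7 CPM in NK and 59.5 in NW, a ratio of 0.533 [0.447 to 0.632], Isg15 at 78.2 CPM in NK and 128 in NW, a ratio of 0.612 [0.547 to 0.683], and Ifit1 at 0.663 [0.536 to 0.814]. The 7 neutrophil markers summed to 2632 CPM in NW, 1923 in HSW, 1047 in NK and 2062 in HSK in these monocytes, lowest in NK, and neutrophils were the top class for Isg15 in NW. The part of these transcripts in the 3 ratios was not tested. Ifi202b belongs to a family of DNA-binding proteins with near copies on the same chromosome. In AT2 cells 2 of 26 members were lower, Cmpk2 and Isg15, and 2 were higher, Gbp7 and Bst2, against 2.56% and 6.67%. The Gbp7 ratio of 1.55 [0.931 to 2.61] had an interval that includes 1 and was 0.735 with thinned cells.

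The abundant membrane genes gave the most precise ratios. Ifitm3 was lower in NK in 10 of 11 classes relative to the median of all genes, with 0.741 [0.728 to 0.755] in classical monocytes, 0.498 [0.456 to 0.545] in T and NK cells, 0.540 [0.507 to 0.575] in conventional DCs and 0.734 [0.650 to 0.827] in AT2 cells. Interstitial macrophages were the exception, at 600.4 CPM in NK and 364 in NW, a ratio of 1.65. Alveolar macrophage markers summed to 2429 CPM in NW, 6758 in HSW, 4009 in NK and 21587 in HSK in interstitial macrophages, and classical monocyte markers to 2779, 6838, 4201 and 21321 in the same order. The classical monocyte set is not specific to monocytes here, since it summed to 14744 CPM in NW, 19110 in HSW, 16113 in NK and 20044 in HSK in alveolar macrophages, above the 11631 to 13526 CPM of classical monocytes. Both sets were higher in NK than in NW in interstitial macrophages, and their part in that ratio was not tested. Ifi27l2a was below the median of all genes in 10 of 11 classes as well, at 0.711 [0.695 to 0.728] in classical monocytes and 0.650 [0.592 to 0.715] in fibroblasts. Its ratio in alveolar macrophages was 0.726 [0.677 to 0.778]. Airway epithelial cells, at 0.900 [0.727 to 1.12], and interstitial macrophages, at 1.06 [0.933 to 1.20], were the nearest to 1.

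Isg15 was below the median of all genes in 9 of 9 classes and Xaf1, a pro-apoptotic interferon-induced gene, in 9 of 9. Isg15 ratios ran from 0.567 in conventional DCs to 0.904 in B cells. Bst2 went the other way, above the median of all genes in 9 of 11 classes, with 1.28 [1.18 to 1.38] in monocytes, 1.56 [1.31 to 1.86] in AT2 cells and 1.89 [1.40 to 2.57] in interstitial macrophages, and at the same level in both libraries in conventional DCs, 1.00 [0.890 to 1.13]. Over all class and member pairs of the OAS family, 28 of 35 were below the median of all genes and 16 were below it by 1.5-fold, with a median of -0.57, and the share of all genes that far below the median was 3.60% in AT2 cells to 11.2% in interstitial macrophages. The GTPases were near the median, with 33 of 61 pairs below it and a median of -0.06. In B cells Oas2 was at 0.471 [0.263 to 0.816] and Rtp4 at 0.494 [0.311 to 0.769], in non-classical monocytes Ifi202b was at 0.263 [0.109 to 0.550] and Mx1 at 0.394 [0.193 to 0.738], and in fibroblasts Xaf1 was at 0.547 [0.361 to 0.821]. Stat2 in airway epithelial cells, at 3.12 [1.58 to 6.72], was the largest ratio of any member in this comparison and rested on 11 UMIs in NW.

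**Figure D3:**
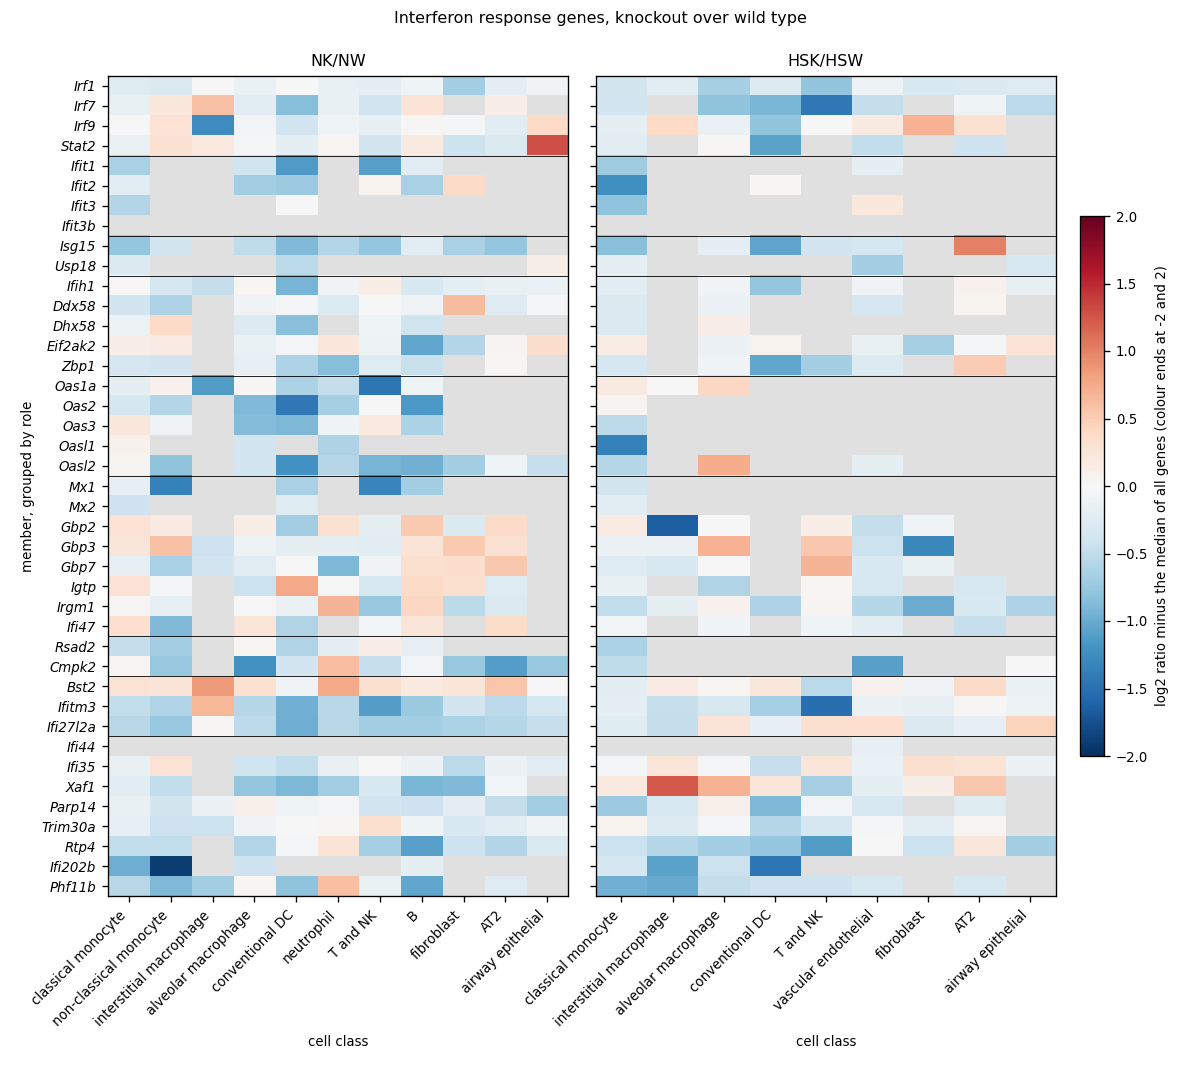
Log2 ratio of each member minus the median of all genes, by class, for NK against NW and HSK against HSW; grey marks pairs under 50 UMIs and colours end at 2 in each direction. Rows of Isg15, Xaf1, Ifitm3 and Ifi27l2a are low in nearly all classes of NK against NW, whereas the Bst2 row is not.

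The same genotype comparison was then made under HySu. For HSK against HSW the members' median was below that of all genes in 8 of 9 classes, with AT2 cells the exception at 0.03. In classical monocytes 9 of 39 members were lower in HSK and 0 higher, against 8.83% and 5.08% of all genes, and the members' median was -0.30 against -0.02. Of the 39, 33 lay below the median of all genes. Oasl1, an inhibitor of Irf7 translation in mouse, was at 13.7 CPM in HSK and 36.3 in HSW, a ratio of 0.378 [0.234 to 0.582]. Ifit2 was at 10.7 CPM in HSK and 26.1 in HSW, a ratio of 0.410 [0.237 to 0.671], Phf11b at 67.9 CPM in HSK and 135 in HSW, a ratio of 0.505 [0.411 to 0.615], and Isg15 at 98.3 CPM in HSK and 178 in HSW, a ratio of 0.553 [0.466 to 0.652]. The intervals of these 4 lay wholly below 1. Xaf1 and Oas1a were at the other end, with ratios of 1.12 [0.981 to 1.29] and 1.11 [0.937 to 1.31], whose intervals include 1. The cluster led by F13a1 and Vcan held 610 monocytes of HSW and 197 of HSK, and its members' median was -0.31 against -0.01 for all genes, so the difference was present within it.

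Conventional DCs of HSK had 12 of 20 members lower and 0 higher, against 12.1% and 6.24%, and the gap to the median of all genes was -0.64. This class was made up differently in the 2 libraries: the cluster led by Mgl2 and Ccl17 supplied 42 of the 97 cells of HSK, and the cluster led by Cd209a and Clec10a supplied 66 of the 155 cells of HSW. With clusters weighted equally, the gap turned to 0.165. That weighting left out the cluster led by Cd209a and Clec10a, which had too few cells in HSK, 18. The direction in DCs thus changed with the clusters included, and the part of make-up alone cannot be read from it. The lowest member was Ifi202b, at 0.335 [0.144 to 0.696] from 43 and 9 UMIs, followed by Stat2 at 30.4 CPM in HSK and 68.4 in HSW, a ratio of 0.444 [0.273 to 0.699]. Bst2, at 1.09 [0.922 to 1.29], and Xaf1, at 1.11 [0.721 to 1.71], did not differ beyond counting error.

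T and NK cells, with 55 cells in HSK, had 6 of 20 members lower and 2 higher, against 10.2% and 10.7%. The T cell cluster with Tcf7 and Il7r held 10 cells of HSK and 83 of HSW, and that with Pclaf and Top2a 37 and 70. These ratios therefore compare differently composed classes. Ifitm3 was at 246 CPM in HSK and 671 in HSW and Irf7 at 29.3 CPM in HSK and 77.4 in HSW, and Gbp7 was higher, at 1.67 [1.15 to 2.41]. A single cell held 44 of the 101 Ifitm3 UMIs of HSK. The summed classical monocyte markers in T and NK cells, 3032 CPM in NW, 2979.9 in HSW, 2711 in NK and 1698 in HSK, were also lowest in HSK, and their part was not tested. In alveolar macrophages 4 of 28 were lower and 3 higher, against 2.68% and 3.66%, with Irf7 at 0.565 [0.396 to 0.802] and Xaf1 at 1.61 [1.21 to 2.16]. AT2 cells had 1 of 21 members higher, Isg15 at 6.90 CPM in HSK and 3.49 in HSW, and 0 lower, against 2.62% and 3.06%.

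Vascular endothelial cells, the class named in the series title, had 3 of 30 members lower in HSK and 0 higher, against 7.13% and 4.89% of all genes. The shares are near those of all genes, while 25 of the 30 lay below the median of all genes and the gap was -0.20. Cmpk2 was lowest, at 21.7 CPM in HSK and 47.7 in HSW, a ratio of 0.454 [0.251 to 0.778], and Usp18 was next at 0.595 [0.293 to 1.13]. Ifi27l2a, at 1.24 [0.945 to 1.62], and Ifit3, at 1.14 [0.745 to 1.71], were the highest, with intervals that include 1. Ifitm3 was at 4059 CPM in HSK and 4532 in HSW, a ratio of 0.896 [0.858 to 0.934], and Bst2 at 485 CPM in HSK and 464 in HSW, a ratio of 1.05 [0.921 to 1.19]. The red cell genes, given above, were lower in HSK than in HSW as well, and their part was not tested.

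Across the classes measured, Irf7 was below the median of all genes in 7 of 7, Irf1 in 9 of 9, Phf11b in 7 of 7 and Ifitm3 in 8 of 9, and Xaf1 was above it in 6 of 8. In interstitial macrophages Xaf1 was at 74.1 CPM in HSK and 31.9 in HSW, a ratio of 2.32 [1.44 to 3.84], and Gbp2 at 0.305 [0.146 to 0.591]. Alveolar macrophage markers were higher in HSK than in HSW in that class too, as given above, and their part was not tested. In fibroblasts Gbp3 was at 16.8 CPM in HSK and 42.1 in HSW, a ratio of 0.400 [0.205 to 0.745], and Irgm1 at 0.495 [0.275 to 0.864]. Airway epithelial cells had Rtp4 at 0.602 [0.401 to 0.900] and Irgm1 at 0.632 [0.404 to 0.985]. Irf9 in fibroblasts was the highest there, at 1.62 [0.900 to 2.99], but with Scrublet doublet calls as the only doublet filter it was 0.951.

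HySu was compared with normoxia in each genotype. In these comparisons the median of all genes itself lay below 0, by -0.24 to -0.90 for HSW against NW and by -0.15 to -1.30 for HSK against NK on the log2 scale, so counts are given beyond that median, a reference chosen after those medians were seen. Ratios of single members are not shifted in this way. In classical monocytes 13 of 40 members were higher in HSW than in NW by 1.5-fold beyond the median and 0 lower, against 14.4% and 8.47% of all genes. Without that shift, 3 were higher and 6 lower, against 4.39% and 30.4% of all genes. Ifi202b was highest, at 150.4 CPM in HSW and 59.5 in NW, a ratio of 2.53 [2.28 to 2.81], followed by Ifitm3 at 7107 CPM in HSW and 4054 in NW, a ratio of 1.75 [1.73 to 1.78], and Phf11b at 1.62 [1.47 to 1.78]. The promoter windows printed for these 3 differ, with an ISRE match in Ifitm3 and Phf11b and none in Ifi202b. Oas2 was lowest, at 43.8 CPM in HSW and 82.8 in NW, a ratio of 0.530 [0.459 to 0.610], and Ddx58 next at 0.587 [0.498 to 0.688]. Monocytes of HSW thus held more Ifitm3 and less Oas2 and Ddx58 than monocytes of NW. Over the 5 classes with counts, 30 of 165 were higher and 28 lower beyond the median of all genes. By class, 7.99 to 19.2% of all genes were higher and 7.10 to 16.7% lower in this way. Without that reference 8 members were higher and 59 lower. All genes then had 2.28 to 8.39% higher and 16.4 to 37.2% lower by class.

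**Figure D4:**
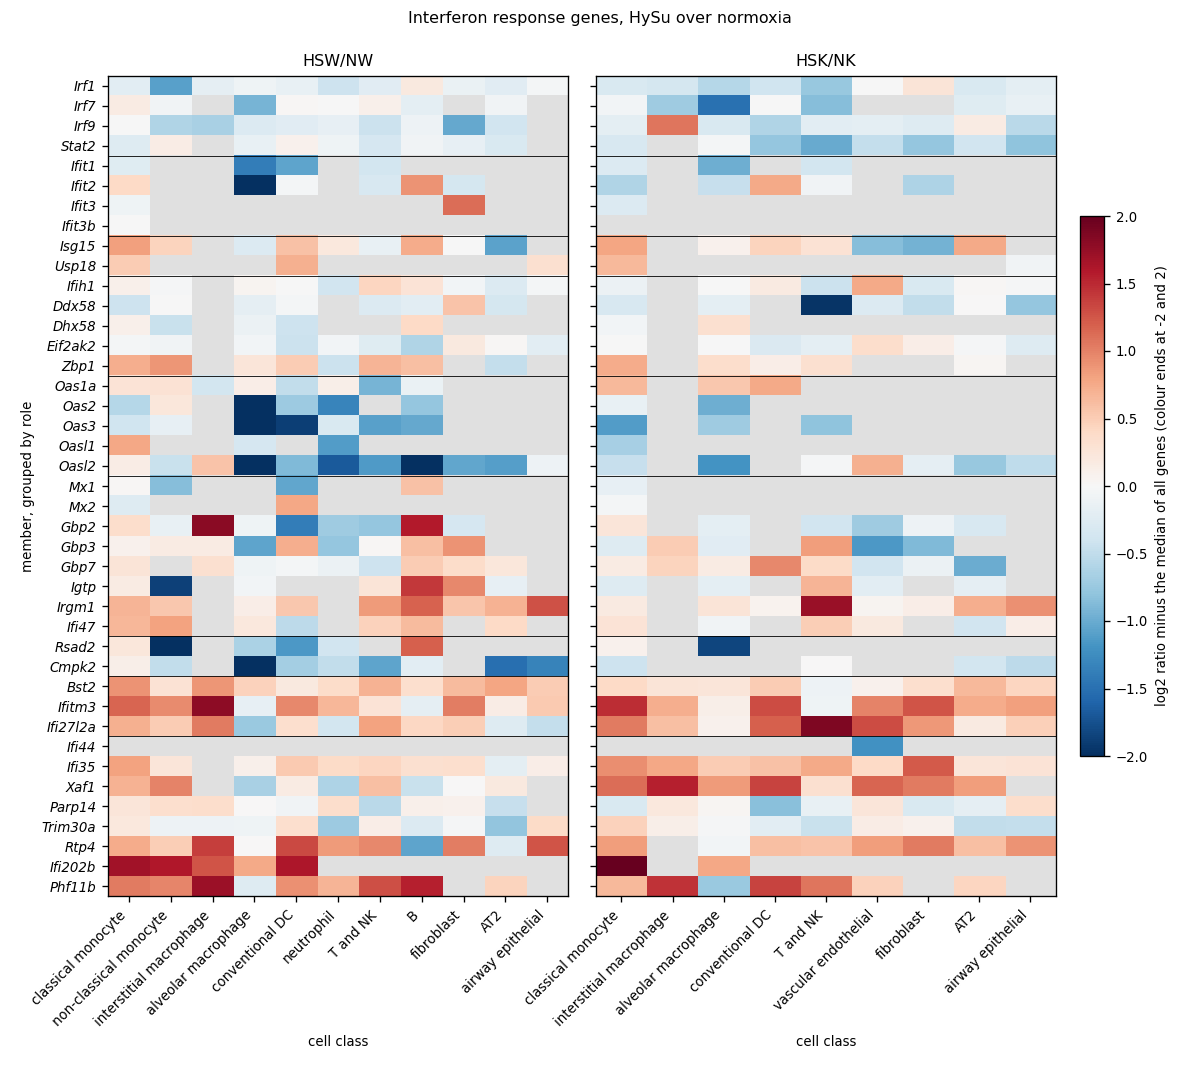
Log2 ratio of each member minus the median of all genes, by class, for HSW against NW and HSK against NK; grey marks pairs under 50 UMIs and colours end at 2 in each direction. Rows of Ifitm3, Irgm1, Rtp4 and Ifi202b are mostly high and rows of Oas3, Oasl2 and Cmpk2 mostly low for HSW against NW.

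In alveolar macrophages as a whole the balance was the opposite, with 11 of 35 members lower beyond the median and 1 higher, against 7.10% and 7.99%. Ifit2 was at 0.267 CPM in HSW and 3.25 in NW, a ratio of 0.0822 [0.0164 to 0.254] from 51 and 3 UMIs, and Oas3 at 0.623 CPM in HSW and 6.38 in NW, a ratio of 0.0978 [0.0383 to 0.209]. In NW, 5 of 1196 macrophages held 26 of the 51 Ifit2 UMIs. Ifi202b, at 1.44 [1.00 to 2.07], and Bst2, with 86.2 CPM in HSW and 73.6 in NW, were the highest. Different clusters held most of the macrophages of the 2 libraries: the cluster led by Car4 and Gdf15 held 716 cells of NW and 342 of HSW, and the cluster led by Fabp1 held 359 and 521. The members' median was -0.30 against -0.24 for all genes in the first and -0.15 against -0.21 in the second, so within clusters the members were close to all genes. In AT2 cells 2 of 24 were higher and 4 lower, against 10.2% and 7.99%, with Bst2 at 1.26 [1.05 to 1.51] and Cmpk2 at 2.15 CPM in HSW and 8.54 in NW, a ratio of 0.251 [0.135 to 0.442].

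T and NK cells had 7 of 30 members higher and 5 lower, against 19.2% and 16.7%, shares close to those of all genes. Their make-up differed between the libraries, as given above. Phf11b was at 219 CPM in HSW and 113 in NW, a ratio of 1.93 [1.60 to 2.34], and Oasl2 and Oas3 were at 0.355 [0.188 to 0.627] and 0.368 [0.199 to 0.639]. Conventional DCs had 7 of 36 higher and 8 lower, against 17.4% and 14.2%. Ifi202b was at 2.40 [1.46 to 3.98] and Rtp4 at 1.95 [1.28 to 2.97], while Oas3 was at 0.198 [0.0764 to 0.436] and Gbp2 at 0.285 [0.123 to 0.585]. With clusters weighted equally the DC ratio of Rtp4 turned to 0.832.

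Several members lay on one side across classes. Bst2 was above the median of all genes in 11 of 11 classes, Irgm1 in 9 of 9, Ifi202b in 5 of 5, and Ifitm3 and Rtp4 in 9 of 11 each. Oas3 was below it in 7 of 7 classes, Irf9 in 10 of 10, Oasl2 in 9 of 11 and Cmpk2 in 8 of 9. Over all pairs of class and member, OAS genes lay below the median of all genes in 27 of 35 and the membrane genes above it in 27 of 33, with medians of -0.57 and 0.50. In B cells Oasl2 was at 6.97 CPM in HSW and 49.7 in NW, a ratio of 0.140 [0.0443 to 0.342], while Gbp2 was at 2.37 [1.65 to 3.41] and Phf11b at 2.31 [1.86 to 2.87]. In neutrophils Oasl2 was at 34.0 CPM in HSW and 191 in NW, a ratio of 0.178 [0.0930 to 0.313], and Oas2 at 0.223 [0.0866 to 0.484]. All genes measured in neutrophils had a median of -0.75 on the log2 scale. The 2 libraries filled this class from different clusters: the cluster led by Il1b and Csf3r held 112 neutrophils of NW and 19 of HSW, and the cluster led by Camp and Ngp held 15 of NW and 36 of HSW. Summed neutrophil markers were 73202 CPM in NW and 266332 in HSW, and the part of this make-up in the neutrophil ratios was not tested. In non-classical monocytes Ifi202b was at 2.50 [1.60 to 3.84] and Igtp at 0.195 [0.0393 to 0.595]. In interstitial macrophages, where the gap to the median of all genes was largest, at 0.58, Ifitm3 was at 992 CPM in HSW and 364 in NW, a ratio of 2.72 [2.35 to 3.17], and Gbp2 at 2.85 [1.44 to 6.15]. The alveolar macrophage markers given above were also higher there in HSW than in NW, and their part was not tested. In fibroblasts Ifitm3 was at 1.64 [1.55 to 1.74], Ifit3 at 1.77 [0.988 to 3.22] and Irf9 at 0.393 [0.224 to 0.663]. In airway epithelial cells Cmpk2 was at 0.211 [0.131 to 0.330] and Ifi27l2a at 0.386 [0.302 to 0.493]. All genes of that class had a median of -0.90 on the log2 scale, and 71.8% of them were lower by 1.5-fold. Ifi27l2a there was not past 1.5-fold beyond that median.

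In the knockout, HSK was compared with NK in the same way. Classical monocytes had 11 of 39 members higher beyond the median and 3 lower, against 21.2% and 16.8%. Ifi202b was again highest, at 116 CPM in HSK and 31.7 in NK, a ratio of 3.65 [2.95 to 4.50], and Ifitm3 was at 6103 CPM in HSK and 3006 in NK, a ratio of 2.03 [1.98 to 2.08]. Oas3, at 0.336 [0.246 to 0.450], and Oasl1, at 0.456 [0.281 to 0.708], were lowest. Alveolar macrophages had 2 of 33 higher and 7 lower, against 14.0% and 8.28%, with Irf7 at 4.03 CPM in HSK and 14.5 in NK, a ratio of 0.278 [0.205 to 0.371], Rsad2 at 0.213 [0.105 to 0.396] and Xaf1 at 1.42 [1.12 to 1.80]. AT2 cells had 6 of 25 higher and 2 lower, against 17.8% and 12.2%, and their median equalled that of all genes within 0.001 on the log2 scale.

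T and NK cells had 6 of 29 higher and 5 lower, against 25.2% and 25.1%. Their make-up differed between HSK and NK, as given above. Ifi27l2a was at 2784 CPM in HSK and 1016 in NK, a ratio of 2.74 [2.55 to 2.94], and Ddx58 at 0.171 [0.0460 to 0.448]. Conventional DCs had 8 of 21 higher and 3 lower, against 24.4% and 20.1%, with Phf11b at 1.74 [1.38 to 2.19], Xaf1 at 1.73 [1.10 to 2.71], Parp14 at 0.369 [0.187 to 0.671] and Stat2 at 0.393 [0.245 to 0.606]. The cluster led by Mgl2 and Ccl17 supplied 42 of the 97 DCs of HSK and 24 of the 271 of NK, and the cluster led by Xcr1 and Clec9a 32 and 146, so these ratios compare differently composed classes. In HSK, 5 of 97 DCs held 73 of the 143 Phf11b UMIs. Counting members from 20 UMIs in place of 50 turned the DC gap from 0.45 to -0.0866.

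Endothelial cells had 6 of 24 members higher in HSK than in NK beyond the median and 4 lower, against 19.0% and 16.7%. Xaf1 was at 194 CPM in HSK and 95.6 in NK, a ratio of 2.03 [1.45 to 2.87], Ifi27l2a at 2.26 [1.45 to 3.64] and Ifitm3 at 4059 CPM in HSK and 2279.6 in NK, a ratio of 1.78 [1.66 to 1.91]. Ifi44 was at 30.6 CPM in HSK and 79.3 in NK, a ratio of 0.385 [0.222 to 0.657], and Gbp3 at 0.406 [0.257 to 0.633]. Xaf1 was above the median of all genes in 8 of 8 classes, Ifi27l2a and Ifi35 in 9 of 9 and Irgm1 in 8 of 8, whereas Stat2 was below it in 8 of 8 and Irf7 in 7 of 7. In airway epithelial cells Stat2 was at 0.229 [0.126 to 0.401] and Ddx58 at 0.233 [0.126 to 0.416]. The median of all genes in that class was -1.30 on the log2 scale, and 86.9% of all genes were lower by 1.5-fold. Interstitial macrophages of HSK, in which the summed alveolar macrophage markers were the highest of the 4 libraries, had Xaf1 at 2.14 [1.28 to 3.72], Phf11b at 1.98 [1.19 to 3.40] and Irf7 at 0.434 [0.234 to 0.783], and the part of those markers was not tested. With thinned cells that Irf7 ratio was 1.11. In fibroblasts Ifitm3 was at 1.86 [1.75 to 1.98], Ifi35 at 1.83 [1.21 to 2.80], Isg15 at 0.394 [0.183 to 0.783] and Gbp3 at 0.414 [0.216 to 0.746].

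Whether the HySu ratio itself differed between genotypes was read as log2(HSK/NK) minus log2(HSW/NW), for members with at least 20 UMIs in each library of a class. Negative values mean that HySu went with a lower ratio in the knockout. In classical monocytes 27 of 37 members were below 0, 12 of them with a counting interval wholly below 0 and 4 with an interval above 0. Oasl1 had the lowest value, -1.56 [-2.24 to -0.88], with levels of 27.0 CPM in NW, 36.3 in HSW, 30.0 in NK and 13.7 in HSK. Oas3 was at -0.83 [-1.29 to -0.36], Oasl2 at -0.72 [-1.05 to -0.38], Parp14 at -0.66 [-1.02 to -0.31], Irgm1 at -0.61 [-0.95 to -0.27] and Bst2 at -0.61 [-0.82 to -0.39]. Bst2 was thus higher in HSW than NW and level between HSK and NK, at 147 CPM in NW, 216 in HSW, 188 in NK and 181 in HSK. The same difference was below 0 for 54.0% of the 6790 genes with 20 UMIs in each library, with an interval wholly below 0 for 16.6% and above 0 for 14.4%. On the other side were Ifi202b at 0.53 [0.20 to 0.86], Xaf1 at 0.32 [0.08 to 0.56], Ifi27l2a at 0.23 [0.18 to 0.29] and Ifitm3 at 0.21 [0.17 to 0.25], for which NK had the lowest level of the 4 libraries. The median over the 37 members was -0.20, beside -0.04 for all genes, and 25 of the 37 lay below the median of all genes. In the cluster led by F13a1 and Vcan, the members' median log2 HySu ratio was -0.04 in wild type and -0.41 in knockout. All genes there were at -0.35 and -0.46. In the cluster led by Gm9733 and Plac8 the members were at -0.06 and -0.07, and all genes at -0.30 and -0.38. The members' median was thus lower in knockout in the first cluster and level in the second. The second held 743 cells of NW, 430 of NK, 243 of HSW and 50 of HSK. The part of make-up was not tested. Over the 8 classes the members' median difference was below 0 in 5, from -0.41 in airway epithelial cells to 0.13 in AT2 cells. The medians of all genes were mostly below 0 too, from -0.36 in airway epithelial cells to 0.06 in T and NK cells. Members lay above them by 0.25 in AT2 cells, 0.12 in fibroblasts, 0.04 in T and NK cells and 0.01 in alveolar macrophages. They lay below by 0.17 in monocytes, 0.09 in interstitial macrophages, 0.06 in airway cells and 0.04 in DCs. With Scrublet calls as the only doublet filter the members' median was below 0 in 9 of 9 classes, but all genes were not examined there.

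The genes upstream of the response were given from lists of ligands, receptors and sensors. Ifnb1, the early type I interferon, was found mainly in classical monocytes, with 310 UMIs in NW, 222 in HSW, 79 in NK and 91 in HSK. Conventional DCs gave 69, 29, 8 and 20, and B cells 48, 0, 17 and 1, in the same order of libraries. Scaled to class totals, Ifnb1 was at 29.7 CPM in NW, 38.2 in HSW, 14.6 in NK and 54.2 in HSK in monocytes. It was thus lower in NK than in NW and higher in HSK than in HSW. How many cells held the Ifnb1 UMIs was not examined, so a few cells could set these levels. In DCs it was at 32.4 CPM in NW, 22.0 in HSW, 4.76 in NK and 24.3 in HSK. Monocytes numbered 1628, 853, 1095 and 247. Ifna2 gave 16, 82, 0 and 33 UMIs in monocytes, and Ifna1 gave 23, 19, 0 and 12. Ifng, the type II interferon, was found mainly in T and NK cells, with 296 UMIs in NW, 163 in HSW, 441 in NK and 34 in HSK. Scaled to the class total, Ifng in T and NK cells was at 166 CPM in NW, 147 in HSW, 188 in NK and 83.0 in HSK, so HSK was the lowest. The make-up of this class differed between libraries, as given above, and its part was not tested. Ifnk had 0 UMIs in all libraries.

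Of 17 sensors and adaptors, 14 were measured in monocytes for NK against NW, with 1 higher, the adaptor Ticam1, and 0 lower, and 13 for HSK against HSW, with Ticam1 higher and Ikbke and Aim2 lower. The receptor and JAK-STAT list had 14 genes, of which 13 were measured in classical monocytes for NK against NW and 0 passed 1.5-fold in either direction, with a median of 0.02. Ifnar1 in monocytes was at 68.4 CPM in NW, 58.8 in HSW, 60.5 in NK and 66.7 in HSK, and Ifngr1 at 466 CPM in NW, 304 in HSW, 555 in NK and 316 in HSK. Of 55 further genes known as induced by type I interferon, 53 were measured in monocytes for NK against NW, 1 was higher and 4 were lower, Isg20, Lgals9, Nmi and the chemokine Cxcl10, and the median was 0.04. For HSK against HSW 50 were measured, 0 were higher and 6 lower, Cxcl10 again among them, with a median of -0.13. The members' own medians in monocytes were -0.10 and -0.30, beside 0.06 and -0.02 for all genes. Of the 18 genes induced by interferon gamma, 10 were measured in monocytes for NK against NW, with 0 higher and 1 lower, Cxcl9. Conventional DCs had 2 of 45 type I genes higher and 8 lower for NK against NW, and 1 of 33 higher and 12 lower for HSK against HSW, the second comparison with the difference in cluster make-up described above. Vascular endothelial cells had 2 of 38 higher and 7 lower for HSK against HSW. These counts are read beside the shares of all genes already given for the same classes and comparisons.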

How the data were processed

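Gene by cell tables of UMI counts were deposited for 4 libraries. The submitters' processing notes name cutadapt 1.17, STAR 2.6.1a, featureCounts 2.0.1 and Scanpy for these UMI counts, and the build and strand setting are not given in the sources used here. Libraries were prepared on a Singleron GEXSCOPE microwell system after red cell lysis, per the labels' protocols. The lowest cell of a library held 3775, 3182, 4230 or 4726 UMIs in NW, NK, HSW and HSK, so the deposited tables start at a different depth in each library.

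Cells with at least 200 genes and at most 20% mitochondrial UMIs were kept. Scrublet marked 1 to 30 cells per library, too few for it to be taken as having worked, so doublet removal rested mainly on leaving out cells carrying markers of a second lineage (9.76 to 26.9% of a library). Clustering used scanpy 1.11.5 and leidenalg 0.10.2 with 2000 variable genes, 40 components, 20 neighbours and resolution 1, after members and pathway genes were left out. Clusters were named from marker lists, and between 1.85 and 3.30% of kept cells stayed unnamed. The naming thresholds and the splitting of mixed DC clusters were set after the clusters were seen and before any ratio was computed. UMIs were summed by class and library and divided by the class total. Ratio intervals are conditional binomial and level intervals exact Poisson. Log2 values add 0.5 UMI. Ratio and interval steps were checked on simulated data.

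The members and gene lists were chosen with earlier results of these data known. Ratios are named for the 2 highest and 2 lowest members of each class and comparison, and others for their role. Alternatives were the doublet filter, depth, scaling, UMI minimum, clustering, class make-up and fold, and the fold beyond the median of all genes was added after the data were seen. Equal weighting of clusters left out those with too few cells in either library.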

Additional observations from a re-analysis of the deposited data

Results flagged for a closer look

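A member was singled out where the ratio of HySu to normoxia lay beyond 1.5-fold on opposite sides of the median of all genes in the 2 genotypes. This held for 5 of the 190 pairs of member and class measured in both, and 133 pairs lay on the same side. The difference between genotypes was not tested, since each group is 1 library. Oasl1 in classical monocytes was 0.77 above the median of all genes on the log2 scale for HSW against NW and at -0.66 for HSK against NK. Isg15 in AT2 cells was at -1.08 in wild type and 0.75 in knockout, with 10.2 CPM in NW, 3.49 in HSW, 6.26 in NK and 6.90 in HSK. Xaf1 in alveolar macrophages was at -0.65 and 0.85, with 12.2 CPM in NW, 6.59 in HSW, 7.49 in NK and 10.6 in HSK. Gbp3 in fibroblasts was at 0.91 and -0.88, with 27.7 CPM in NW, 42.1 in HSW, 40.7 in NK and 16.8 in HSK. Irf9 in interstitial macrophages was at -0.65 and 1.07, with 88.2 CPM in NW, 44.2 in HSW, 37.8 in NK and 57.5 in HSK.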

How the results depend on the processing

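No paired analysis was possible because each group is 1 library, and for the same reason no replicate could be left out. The count of 27 members highest in classical monocytes was recomputed only with Scrublet alone and with a total lacking mitochondrial, ribosomal, haemoglobin and surfactant genes. It moved by over 1.5 times under neither. Class medians were read as gaps to the median of all genes. Of 391 alternative values, 331 moved by no more than counting error and 51 by more. Another 9 changed sign from a gap that exceeded counting error. Sign changes of smaller gaps are counted among the 331 and the 51. Scaling by TMM or by a total without mitochondrial, ribosomal, haemoglobin and surfactant genes shifts members and all genes alike. The gaps under these scalings could not move and are among the 331. Of 940 alternative ratios of named members, 873 stayed within counting error, 60 moved by more and 7 changed sides of 1. With Scrublet alone no endothelial cluster was named, so endothelial cells have no value there. Where values moved, the cause was not tested.

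For NK against NW, 5.56 to 10.6% of all genes were higher and 2.56 to 6.99% lower by class. Of 171 members measured, summed over classes, 3 were higher and 32 lower. The number higher was 5 with Scrublet alone, 1 with thinned cells, 1 with TMM, 5 at a minimum of 20 UMIs, 7 at 1 UMI, 6 with clusters weighted equally and 1 beyond the median of all genes. A fold of 1.3 gave 9 higher and 54 lower, and a fold of 2 gave 0 and 8. The class median turned to 0.134 in B cells with Scrublet alone, 0.0163 in fibroblasts at a common UMI minimum and 0.345 in interstitial macrophages with thinned cells. Single ratios that turned were Gbp7 in AT2 cells (0.735, thinned), Rtp4 in B cells (1.25, Scrublet alone) and Irgm1 in neutrophils (0.866, Scrublet alone).

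For HSK against HSW, 2.62 to 10.7% of all genes were higher and 2.68 to 12.1% lower by class. Of 158 members measured, summed over classes, 6 were higher and 34 lower. These became 14 and 53 at 20 UMIs, 23 and 69 at 1 UMI, 14 and 22 with clusters weighted equally, 10 and 54 at a fold of 1.3, and 0 and 12 at a fold of 2. The median turned to 0.0385 in T and NK cells with thinned cells and to 0.165 in conventional DCs with clusters weighted equally, and Irf9 in fibroblasts turned to 0.951 with Scrublet alone.

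For HSW against NW, 2.28 to 8.39% of all genes were higher and 16.4 to 37.2% lower by class. Of 165 members measured, summed over classes, 8 were higher and 59 lower. These became 29 and 30 with TMM, 30 and 28 beyond the median of all genes, and 2 and 25 at a fold of 2. The number higher was 18 at a fold of 1.3, and the number lower was 26 with thinned cells. Classes below all genes were 5 of 11, but 2 of 11 with Scrublet alone, 3 of 9 at a common UMI minimum and 3 of 9 with thinned cells. The neutrophil median turned to 0.285 with Scrublet alone, Rtp4 in DCs to 0.832 with clusters weighted equally and Ifit3 in fibroblasts to 0.947 with thinned cells.

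For HSK against NK, 4.23 to 14.1% of all genes were higher and 24.3 to 52.7% lower by class. Of 171 members measured, summed over classes, 16 were higher and 63 lower. These became 33 and 28 with TMM, 28 and 106 at 1 UMI, 6 and 26 at a fold of 2, and 39 and 24 beyond the median of all genes. The number higher was 10 at a common UMI minimum, and the number lower was 35 with thinned cells. Classes below all genes were 5 of 9, but 1 of 8 with thinned cells, 8 of 9 at 1 UMI and 3 of 9 with clusters weighted equally. The DC median turned to -0.0866 at 20 UMIs and -0.204 at 1 UMI, the interstitial macrophage median to -0.00353 at 1 UMI, and Irf7 in interstitial macrophages to 1.11 with thinned cells. The difference of HySu ratios was below 0 in 5 of 8 classes, and in 9 of 9 with Scrublet alone. These counts are not relative to all genes, whose own medians were mostly below 0.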

Other observations

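One cluster of 24 cells, 3 of them in NK and 7 in each other library, was led by Pmaip1, Ffar2, Asb2, Ifitm1, Ifit2 and Cxcl9 and met no marker list, so it was left unnamed and in no class. Ifit2 is a member and Cxcl9 a chemokine induced by interferon gamma. The cluster was chosen for mention after its leading genes were seen. All 4 libraries held cells of it, and its numbers are too small for a ratio between libraries.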
